A study of Mus musculus with 40 samples.

Results

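Preadipocyte and stromal progenitor markers are genes whose products mark the fibroblast-like cells of fat tissue, among them the cells that can become adipocytes. The markers described here were Pdgfra, Pdgfrb, Dlk1, Cd34, Ly6a, Dpp4, Pi16, Dcn, Lum and Thy1. Members were the probes of the array whose gene symbol in the deposited table was one of these names. All 10 genes had a probe, and 14 of the 40628 probes in the table belonged to them, out of 29411 gene symbols. Of the 10 genes, 7 had 1 probe, and the others, Pdgfra, Dpp4 and Thy1, had more than 1. Fat tissue grows by enlarging its adipocytes and by forming further adipocytes from stromal progenitors that lie along vessels and in the connective tissue between fat lobules. Progenitors of the connective tissue carry Dpp4 and Pi16, and those closer to the adipocyte lineage lose them as they commit. None of these markers belongs to a single cell type, since mural cells carry Pdgfrb, endothelial cells carry Cd34 and Ly6a, and T cells carry Thy1 and Dpp4.

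Stromal vascular cells of subcutaneous fat, the cells left when adipocytes are removed from digested tissue, were taken from C57BL/6J mice that entered the diets after weaning. The diets were a low-fat diet (LFC), a high-fat diet with added sucrose (HFC), and HFC with Kal-1, a botanical formulation, at 5 µg (HF5), 20 µg (HF20) or 75 µg (HF75). Of 40 arrays, 38 were used, namely 11 LFC, 11 HFC, 6 HF5, 5 HF20 and 5 HF75, and 2 arrays of week 18 with labels in conflict were left out. A time point had 1 array per diet, apart from day 14 with 2 each of LFC and HFC (one called day 14, the other week 0), and how many mice went into an array was not given. Early arrays are named by their day and late ones by the week of their label, counted from day 14, so that week 3 is day 35 and week 18 is day 140. LFC and HFC spanned day 1 to week 18, HF5 weeks 3 to 18, and HF20 and HF75 weeks 3 to 15. The p-values given here therefore measure spread between arrays of different time points, and not spread between mice.

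Levels are the log2 of the scanner intensity, corrected for background, minus the 75th percentile of the same array, so that 0 marks the 75th percentile and 1 unit is a doubling. A value not well above background by the scanner's own test was raised to the lowest level on that array that was well above it, where it lay below that level, and was otherwise used as read. Levels were compared between arrays for 1 probe at a time, and the brightest gene of a list below is only the one whose probe had the highest mean level. Where a gene had several probes, the one with the highest mean level was used first. The 75th percentile intensity had a median of 834 for LFC (lowest 8.02, highest 2169) and 829 for HFC (lowest 168, highest 1719). For the Kal-1 diets the median was 744 in HF5 (lowest 485, highest 1542), 1207 in HF20 (lowest 796, highest 1866) and 554 in HF75 (lowest 469, highest 781). The number of arrays limited the precision of every value.

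The signal of 3 LFC arrays stood apart from that of the other arrays. On the LFC array of week 3, 16.8% of spots were well above background, against 52.2% to 86.5% on the 35 arrays that did not stand apart, and its lowest level well above background was -0.06. Pdgfra, Pdgfrb, Dlk1, Ly6a, Dpp4 and Pi16 were not well above background there. Pdgfra, Ly6a and Dpp4 stand at that lowest level, and Pdgfrb (1.00), Dlk1 (0.41) and Pi16 (0.23) read above it without passing the scanner's test. The scanner software marked 9104 outlier spots on the LFC array called day 14, against at most 780 on each of those 35, and Dlk1 had no usable spot on it. Rank correlations to all other arrays had a median of 0.509 for the week 3 array and 0.453 for the array called day 14. The median was 0.834 for the LFC array of week 18, and 0.836 to 0.944 for each of the 35. Outlier spots also removed Pi16 from both arrays of day 10 and the main probe of Thy1 from the LFC array of day 10.

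The LFC array labelled week 18 went in part against its label of stromal vascular cells. Its intensity was ordinary, with 62.1% of spots well above background, but Pdgfra, Dlk1, Dcn and Lum were not well above background. The mean level of the 10 progenitor markers was -2.50 there and 0.79 to 3.28 on the 37 others. The mean of 9 mural markers (brightest gene Acta2) was -5.18, that of 7 endothelial markers (brightest gene Vwf) was -4.0, and that of 9 adipocyte markers (brightest gene Plin4) was -3.35, each the lowest of the 38 arrays. The 5 neutrophil markers (brightest gene S100a9) had a mean of 5.51, the highest of all arrays. Pdgfra, Dlk1, Dcn and Lum were thus at background on that array. The other progenitor markers were well above background there, with Pi16 at 2.62, Thy1 at 2.44, Ly6a at 1.18, Cd34 at 0.36, Dpp4 at -0.95 and Pdgfrb at -4.57. The main results that rest on this array are also given without week 18.

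The progenitor markers were present on the other arrays. Outside the LFC arrays of week 3 and week 18, each of Pdgfra, Pdgfrb, Cd34, Ly6a, Dpp4, Dcn and Lum was well above background on 36 of 36 arrays, and Dlk1 was on 34 of the 35 where it was measured. The 9 adipocyte markers, which should be low in stromal vascular cells, were not equally low. Their mean was 4.80 or more on 10 arrays, namely LFC of day 6, week 9 and week 12, HFC of day 1, day 6 and week 9, HF5 of week 9, and HF20 of weeks 9, 12 and 15. It was 3.08 or less on the other arrays. On 8 of those 10 arrays the 8 immediate-early and digestion response genes (brightest gene Junb) had a mean of 1.92 or less, while the HFC arrays of day 6 and week 9 had 4.27 and 3.16. The HF5 array of week 3 differed in another way, with the highest T cell mean of all arrays (2.38, brightest gene Cd6) and low mural and endothelial means of -2.18 and -2.28.

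**Figure D1:**
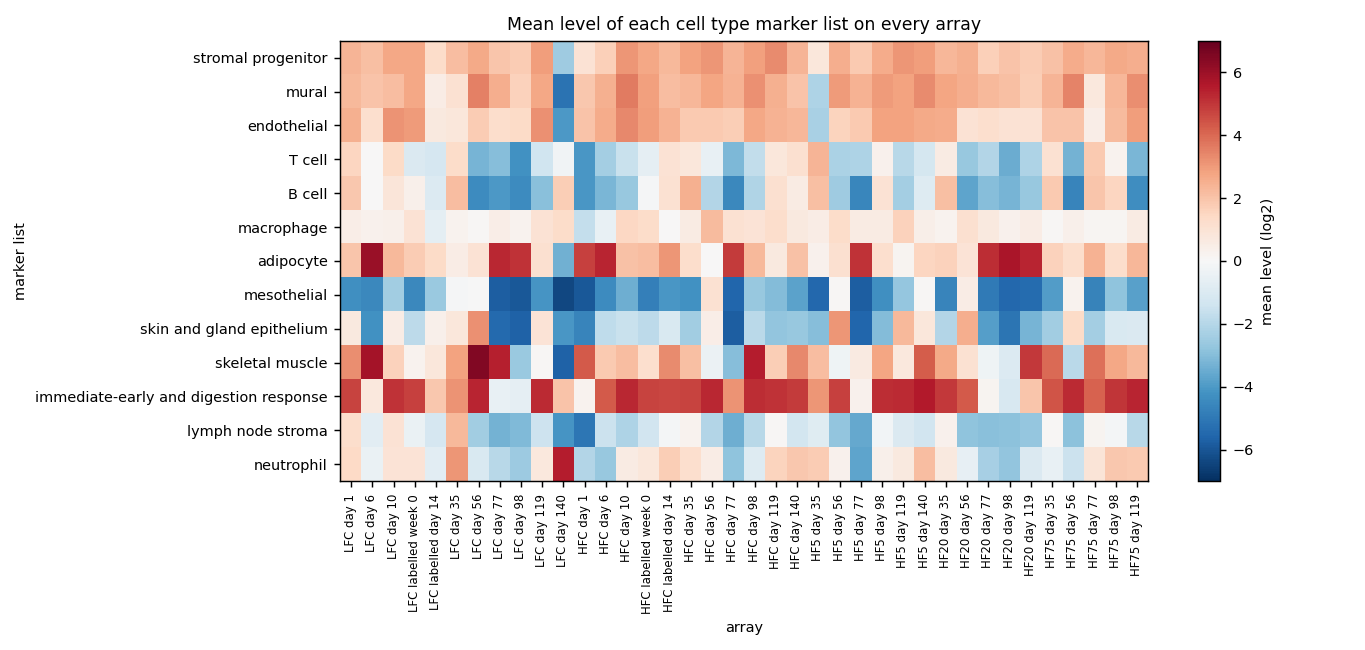
Mean level of each cell type marker list (rows) on each of the 38 arrays (columns), in log2 units, red above and blue below the 75th percentile of the array. The LFC array labelled week 18 is low in the stromal, mural, endothelial and adipocyte lists and high in the neutrophil list (5.51), and the adipocyte list reaches 4.80 or more on 10 arrays.

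Pdgfra and Pdgfrb encode the receptors for platelet-derived growth factors. Pdgfra marks fibroblasts and adipocyte progenitors, and Pdgfrb marks mural cells along with a share of the progenitors. The level of Pdgfra had a median of 0.10 on the LFC arrays, between -6.88 at week 18 and 1.70 at week 6, and a median of 0.98 on the HFC arrays, between -1.26 at day 6 and 2.68 at week 6. On the HF5 arrays its median was 0.87, between -2.15 at week 3 and 2.36 at week 15. On the HF20 arrays the Pdgfra level was -0.11, 1.76, 0.43, 0.35 and 0.76 at weeks 3, 6, 9, 12 and 15, and on the HF75 arrays it was -1.02, 2.22, -0.43, 0.27 and 0.77 in the same weeks. The diets overlapped widely, and the week 6 arrays were among the highest of every diet. Pdgfrb had a median of 2.0 on LFC, between -4.57 at week 18 and 2.86 at week 15, and a median of 2.49 on HFC, between 1.45 at week 18 and 3.03 at day 6. Its HF5 median was 2.76, between -1.42 at week 3 and 3.26 at week 15. On the HF20 arrays the Pdgfrb level was 2.20, 2.31, 2.23, 2.11 and 2.12 from week 3 to week 15, and on the HF75 arrays it was 1.65, 3.63, 0.14, 2.06 and 3.43. The HF20 arrays were the most alike for Pdgfrb, with an SD of 0.08 (n = 5), while those of HF75 had an SD of 1.42 (n = 5) and lay on both sides of them.

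Dlk1, also known as preadipocyte factor 1, is an imprinted gene whose membrane protein restrains adipocyte differentiation. It is high in fetal and newborn tissue and falls as animals mature. Its level was -2.05 to -1.46 on the 4 early LFC arrays that measured it and -1.93 to -0.96 on the 5 early HFC arrays, where early means up to day 14. On the 6 late HFC arrays it was -3.68 to -1.55, with a median of -2.73. All 9 early values were above the late HFC median, and the late HFC range reached into the early one only at week 12. The late LFC values did not all follow this, at -1.95, -3.28, -3.06 and -1.49 at weeks 6, 9, 12 and 15, so that those of weeks 6 and 15 lay inside the early LFC range. The values of weeks 3 and 18, 0.41 and -6.67, come from arrays that stand apart and were not well above background. On HF5 the Dlk1 median was -3.40, between -5.18 at week 9 and -2.47 at week 12. On HF20 its level was -2.62, -2.97, -4.79, -4.23 and -4.22 from week 3 to week 15, and on HF75 it was -2.60, -3.89, -1.87, -1.25 and -2.42. The 3 lowest HF20 values belonged to the 3 HF20 arrays with high adipocyte markers.

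Cd34 encodes a sialomucin of progenitors and endothelium, and Ly6a encodes Sca-1, an anchored surface protein used to sort progenitors. Cd34 had a median of 5.02 on LFC, between 0.36 at week 18 and 6.07 at week 3, and a median of 5.22 on HFC, between 2.89 at day 1 and 6.06 at day 10. Its HF5 median was 5.15, between 2.72 at week 3 and 5.59 at week 15. On HF20 the Cd34 level was 5.10, 5.11, 4.22, 4.69 and 4.28 from week 3 to week 15, and on HF75 it was 4.75, 5.77, 4.71, 5.45 and 5.19. On the HFC arrays of those weeks it was 5.21, 5.27, 5.20, 5.60 and 5.74, with each HF20 value read below each of these. The Cd34 spot was saturated on 2 arrays, HFC of week 15 and HF20 of week 6, so those 2 values are lower bounds and the order at HF20 of week 6 is not known. Ly6a had a median of 2.41 on LFC, between -0.06 at week 3 and 4.01 on the array labelled week 0, and a median of 2.85 on HFC, between 0.03 at day 1 and 3.55 at week 6. Its HF5 median was 2.51, between -0.07 at week 3 and 3.51 at week 15. On HF20 the Ly6a level was 2.70, 1.91, 2.54, 1.63 and 2.37, and on HF75 it was 2.32, 1.35, 2.32, 2.79 and 3.16, in the same order of weeks. All HF20 and HF75 values of Ly6a lay inside the HFC range.

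Thy1 encodes an anchored immunoglobulin-like protein of fibroblasts, T cells and neurons. Its median was 3.45 on LFC, between 1.32 at week 12 and 5.08 at week 3, and 3.85 on HFC, between 0.59 at day 1 and 4.91 at week 15. On HF5 the median was 3.84, between 2.78 at week 9 and 5.12 at week 3, the array with the highest T cell markers. On the HF20 arrays the Thy1 level was 3.89, 3.21, 2.98, 2.81 and 2.48 from week 3 to week 15, and on the HF75 arrays it was 3.83, 4.42, 4.60, 3.75 and 3.14. On the HFC arrays of the same weeks it was 4.57, 4.63, 3.55, 4.32 and 4.91. HF20 and HFC overlapped only through the HF20 array of week 3, which exceeded the HFC array of week 9.

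Dpp4 and Pi16 mark interstitial progenitors, the cells of the connective tissue around fat lobules. Dpp4 encodes a membrane peptidase and Pi16 a peptidase inhibitor. Dpp4 had a median of -0.50 on LFC, between -0.95 at week 18 and 1.30 at day 1, and a median of 0.29 on HFC, between -2.48 at day 1 and 1.23 at week 15. Its HF5 median was 0.54, between -0.93 at week 9 and 1.23 at week 18. On HF20 the Dpp4 level was -0.10, 1.11, -1.39, -0.60 and -0.96 from week 3 to week 15, and on HF75 it was -0.14, 0.57, 0.55, 0.48 and -0.85. The 3 lowest HF20 values were those of the arrays with high adipocyte markers, and so were the 2 lowest HFC values, at days 1 and 6. Pi16 had a median of 2.53 over 10 LFC arrays, between -1.19 at day 1 and 4.12 at day 6, and a median of 2.71 over 10 HFC arrays, between 0.03 at day 1 and 4.78 at week 15. Its HF5 median was 2.16, between 1.07 at week 3 and 4.07 at week 18. On HF20 the Pi16 level was 1.30, 3.18, 1.46, 2.90 and 1.58 from week 3 to week 15, and on HF75 it was 1.45, 0.71, 2.66, 2.02 and 2.51. On the HFC arrays of the same weeks it was 3.30, 4.23, 3.10, 2.53 and 4.78. Of the HF75 values, only that of week 9 reached the lowest of those HFC values, that of week 12.

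Dcn and Lum encode decorin and lumican, small leucine-rich proteoglycans that bind collagen fibrils. Dcn was so bright that its spot was saturated on 25 of 38 arrays, 5 of LFC, 7 of HFC, 5 of HF5, 5 of HF20 and 3 of HF75, so those values are lower bounds. Dcn is therefore left out of the counts and medians of higher and lower markers below. Its levels ran from 4.19 to 7.24 on 37 arrays, and the LFC array labelled week 18 gave -5.64. Its median was 5.64 on LFC, 6.16 on HFC and 6.12 on HF5, and on HF20 the Dcn level was 6.47, 5.22, 5.43, 5.92 and 5.72 from week 3 to week 15. Lum was on no array saturated. Its median was 3.63 on LFC, between -6.88 at week 18 and 5.00 at day 10, and 4.36 on HFC, between 2.43 at day 1 and 5.41 at day 10. On HF5 its median was 4.19, between 1.68 at week 3 and 4.82 at week 18. On HF20 the Lum level was 4.18, 4.29, 3.65, 4.09 and 3.59 from week 3 to week 15, and on HF75 it was 3.46, 4.33, 3.46, 3.89 and 4.12. On the HFC arrays of those weeks it was 4.81, 4.36, 4.33, 5.21 and 5.06, so that each of the 5 HFC values lay above each HF20 and each HF75 value, if narrowly, since the lowest HFC value and the highest HF75 value print alike.

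**Figure D2:**
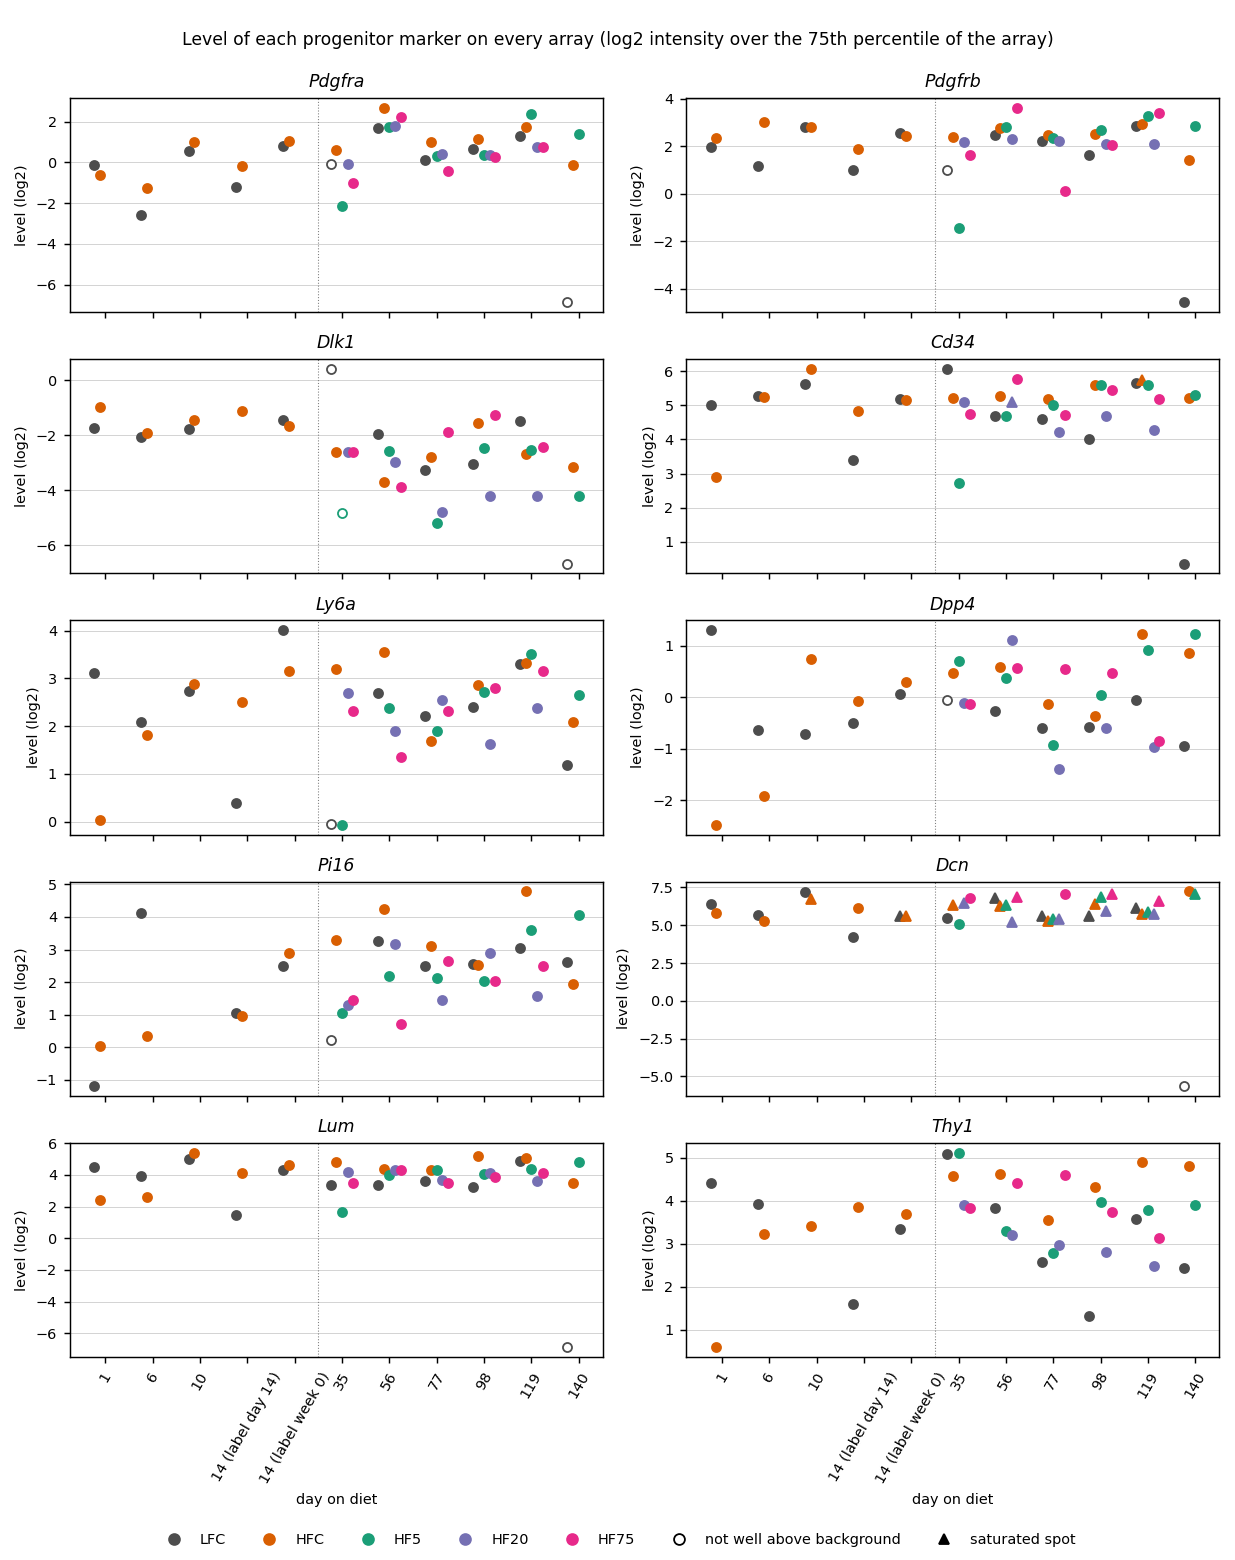
Level of each gene's main probe (vertical axis, log2 over the 75th percentile of the array) against the day on diet, 1 point per array, coloured by diet, with open points for values not well above background and triangles for saturated spots. The LFC array labelled week 18 lies at -6.88 for Pdgfra and Lum, and the HFC values of Lum from week 3 to week 15 lie above those of HF20 and HF75.

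The first comparison asked whether the high-fat diet shifts the markers, by pairing the HFC and LFC arrays of each time label. Across all probes, limma called 0 of 29215 at an adjusted p under 0.05 (0%), with 806 under an unadjusted p of 0.05 (1788 without day 1 and 503 without the label day 14). Of the 10 markers 0 were called, against that background of 0%, and 2 had an unadjusted p under 0.05. That count of 2 became 0 when day 6, the label day 14, week 3, week 6, week 9 or week 12 was left out. All 9 fitted differences other than that of Dcn were above 0, with a median of 0.59 (0.38 without week 12, with 8 above 0), against -0.09 over all probes tested. In the pairs that lay on one slide (8 arrays) the median was 0.07, with 6 markers higher and 3 lower. These arrays include the dim LFC array of week 3. Pdgfra differed by 1.15 (SE 0.53, 95% interval 0.02 to 2.29, limma adjusted p 0.942) and was higher in HFC in 10 of 11 pairs, while its other probe was well above background on only 4 of the 10 LFC arrays that measured it, so no difference is given for it. Pdgfrb differed by 1.07 (SE 0.49, adjusted p 0.942) and was higher in 9 of 11 pairs, and Lum by 1.42 (SE 0.85, adjusted p 0.942), also higher in 9 of 11 pairs. In these bulk samples, fewer cells of a type and less RNA per cell cannot be told apart.

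Much of the size of these differences came from the LFC array labelled week 18. Without the pair of week 18, the difference was 0.60 for Pdgfra, 0.58 for Pdgfrb, 0.52 for Lum and 0.17 for Cd34 (0.59 with it), and the median over the 9 markers was 0.41, with 8 higher and 1 lower. At week 18 itself the HFC level of Pdgfra was higher than that of LFC by at least 6.73, a bound because the LFC value was a floor. Without the pairs of week 3, the label day 14 and week 18, a choice made after the values were seen, the median over the 9 markers was 0.15, and 7 markers were higher and 2 lower. Of the 8 pairs that remained, Pdgfra was higher in HFC in 7, by 1.34, 0.43 and 0.25 in the early pairs of day 6, day 10 and week 0, and by 0.98, 0.88, 0.49 and 0.45 in the late pairs of weeks 6, 9, 12 and 15, with -0.52 at day 1. Where the LFC value was a floor, as for Pdgfra at weeks 3 and 18, the pair gives only a bound. For Dlk1 at week 3 the LFC value, 0.41, was not well above background on that dim array and yet lay above the HFC value of -2.61, so that pair has no order.

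Marker lists of other cells were set beside this result, and their part in it was not tested. All 8 immediate-early and digestion response genes were higher in HFC, with a median of 1.43, as were 9 of 9 mural markers (median 0.91) and 7 of 7 endothelial markers (median 1.01), each with 0 called. The T cell (median 0.10), macrophage (0.31), adipocyte (0.31), mesothelial (0.43) and skeletal muscle (0.57) lists were closer to 0 or above it, and the B cell (-0.46), epithelial (-0.84), lymph node stroma (-0.52) and neutrophil (-0.39) lists were below. Without week 18 the immediate-early list had a median of 1.33 and 8 of 8 genes higher, the endothelial list 0.57 and 7 of 7, and the mural list 0.45 and 6 of 9, while the T cell, adipocyte, mesothelial, skeletal muscle and lymph node stroma medians were -0.07, 0.01, -0.14, -0.37 and -1.03. In the 8 pairs whose adipocyte marker means differed by at most 2, also chosen after the values were seen, the difference was 0.75 for Pdgfra, 0.57 for Pdgfrb and 0.67 for Lum, and the median over the 9 markers was 0.57.

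The Kal-1 comparisons asked whether the formulation shifts the markers on the high-fat diet. They share HFC arrays, so their values are given side by side and not counted as separate evidence. In HF5 against HFC (6 pairs), limma called 0 of 29200 probes (0%), with 1517 under an unadjusted p of 0.05. Of the markers 0 of 10 were called against that 0%, and 1 had an unadjusted p under 0.05. All 9 differences other than that of Dcn were below 0, with a median of -0.60, against 0.01 over all probes. That 1 marker was Thy1, which differed by -0.66 (SE 0.27, 95% interval -1.27 to -0.04, limma adjusted p 0.958) and was lower in 5 of 6 pairs. The HF5 array of week 3 weighed on the others. Without that pair, Pdgfra went from -0.51 to -0.06, Pdgfrb from -0.33 to 0.36, Lum from -0.66 to -0.17, Cd34 from -0.55 to -0.17 and Ly6a from -0.60 to -0.07, whereas Thy1 was -0.90, and the median was -0.17, with 8 markers lower and 1 higher. In the 3 pairs that lay on one slide 5 markers were higher and 4 lower, with a median of 0.15. Beside this result, 8 of 8 immediate-early genes (median -0.65), 7 of 7 endothelial (-0.54), 8 of 9 mural (-0.45), 7 of 8 T cell (-0.46), 5 of 5 B cell (-0.42), 6 of 8 macrophage (-0.44) and 7 of 9 adipocyte markers (-0.32) were lower in HF5, and 6 of 6 epithelial markers were higher (1.36), with 0 called. The mesothelial, skeletal muscle, lymph node stroma and neutrophil medians were 0.24, 0.17, -0.22 and -0.03. Without week 3 the mural and endothelial medians were above 0, at 0.28 (8 of 9 higher) and 0.23 (4 of 7 higher), those of T cell, adipocyte, lymph node stroma and neutrophil were -0.96, -0.20, -0.06 and -0.34, and those of the immediate-early, B cell, macrophage and epithelial lists -0.53, -0.55, -0.47 and 1.57. The part of these lists was not tested.

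In HF20 against HFC (5 pairs), limma called 0 of 30831 probes (0%), with 3673 under an unadjusted p of 0.05 (5790, 2381, 1527 and 1071 without weeks 3, 6, 12 and 15). Of the markers 0 of 10 were called against that 0%, and 5 had an unadjusted p under 0.05. That count of 5 became 7, 3 and 2 without weeks 6, 12 and 15. All 9 markers other than Dcn were below 0, with a median of -0.80, against 0.08 over all probes. Thy1 differed by -1.32 (SE 0.33, 95% interval -2.10 to -0.54, limma adjusted p 0.401) and was lower in 5 of 5 pairs. Its pairs from week 3 to week 15 were -0.68, -1.42, -0.57, -1.51 and -2.43, and the other Thy1 probe was lower in 5 of 5 pairs as well, by a mean of -1.0. Pdgfra differed by -0.80 (SE 0.20, adjusted p 0.401), with narrow pair values of -0.71, -0.92, -0.55, -0.80 and -0.99. Its other probe gave -0.56 (SE 0.39) and was lower in 4 of 5 pairs. Pi16 differed by -1.51 (SE 0.50, adjusted p 0.401) and was lower in 4 of 5 pairs. Lum differed by -0.80 (SE 0.27, adjusted p 0.401) and was lower in 5 of 5 pairs, as was Pdgfrb (-0.43, SE 0.21, adjusted p 0.405). Cd34 differed by -0.72 (SE 0.28, adjusted p 0.401) and read lower in every pair, but its week 6 spot was saturated on HF20, so the direction of that pair is not known. Dcn was saturated on all 10 arrays of this comparison, so no difference is given.

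The HF20 arrays also differed in other cell markers, whose part in the result was not tested. All 9 adipocyte markers were higher in HF20, with a median of 1.73, and all 8 immediate-early and digestion response genes were lower, with a median of -2.73, each with 0 called. The medians of the T cell, B cell, mesothelial, lymph node stroma and neutrophil lists were -1.75, -1.20, -1.24, -1.24 and -1.20, those of the endothelial and macrophage lists -0.70 and -0.51, and those of the mural, epithelial and skeletal muscle lists -0.26, 0.11 and 0.24. The adipocyte mean of HF20 exceeded that of HFC by 3.42 at week 12 and 4.66 at week 15, and by at most 0.96 at weeks 3, 6 and 9. In these 3 pairs alone, chosen after the values were seen, all 9 markers other than Dcn were still below 0, with a median of -0.44. Pi16 was then -1.56, Thy1 -0.89, Pdgfra -0.73, Lum -0.46 and Cd34 -0.42.

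In HF75 against HFC (5 pairs), limma called 295 of 28910 probes (1.02%), 236 higher and 59 lower, with 4220 under an unadjusted p of 0.05. Of the markers 0 of 10 genes and 0 of 14 probes were called, against the background of 1.02%. Of the 9 other than Dcn, 3 had an unadjusted p under 0.05, 1 was above 0 and 8 were below, with a median of -0.45 (-0.83 without week 9), against -0.01 over all probes. Pdgfra differed by -1.07 (SE 0.26, 95% interval -1.68 to -0.46, limma adjusted p 0.131), with pairs of -1.62, -0.46, -1.41, -0.88 and -0.98 from week 3 to week 15. Its other probe read lower in 5 of 5 pairs too, but was well above background on only 3 of the 5 HF75 arrays, so the size of its difference is not given. Pi16 differed by -1.72 (SE 0.48, adjusted p 0.185), with pairs of -1.85, -3.52, -0.44, -0.51 and -2.28. Lum differed by -0.90 (SE 0.28, adjusted p 0.215) and was lower in 5 of 5 pairs. These 3 markers were thus lower in every pair without passing the threshold over all probes. Dcn read 6.77, 6.84, 7.07, 7.08 and 6.57 on HF75, but the HFC spots of those weeks were all saturated, so neither direction nor size is known. Dlk1 (0.26, SE 0.25, adjusted p 0.736; 0.09 without week 9) was the marker above 0.

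The count of 295 probes rested on the time point block and on single time points. It was 0 without the block. With 1 time point left out, it was 0 without week 3, 7 without week 6, 200 without week 9, 95 without week 12 and 35 without week 15. Over the same omissions Pdgfra stayed between -1.22 and -0.93, Pi16 between -2.04 and -1.27 and Lum between -1.12 and -0.79. Beside this result, 7 of 8 macrophage markers (brightest gene Cd14) were lower in HF75, with a median of -1.12, and 6 of 6 epithelial markers were higher, with a median of 1.54. The skeletal muscle (1.07), neutrophil (0.94), lymph node stroma (0.38), B cell (0.29), immediate-early (0.08 over 7 genes, Junb being saturated on every array of a group) and T cell (0.06) medians were above 0, and the adipocyte (-0.07), mesothelial (-0.08), mural (-0.15) and endothelial (-0.26) medians were below. None of these list genes was called, and their part in the result was not tested.

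**Figure D3:**
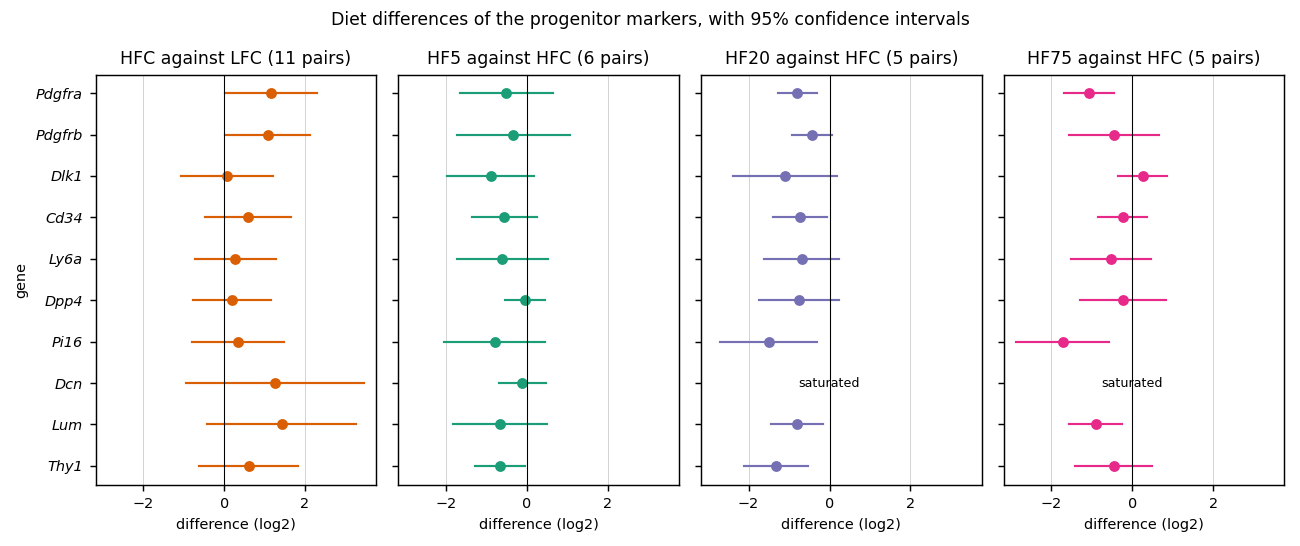
Difference of each marker in the 4 diet comparisons (horizontal axis, log2), with 95% confidence intervals of the limma fit as lines, from 11, 6, 5 and 5 pairs of arrays. Pdgfra lies at 1.15 in HFC against LFC and at -0.51, -0.80 and -1.07 in HF5, HF20 and HF75 against HFC, and Dcn is left out where every spot of a diet was saturated.

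Since the mice entered the diets after weaning, the time points also cover growth. Late arrays (12, from week 3) were compared with early ones (10, up to day 14) over both diets. For this limma called 0 of 30259 probes (0%), with 841 under an unadjusted p of 0.05 (2118 without week 3). Of the markers 0 of 10 were called against that 0%, 1 had an unadjusted p under 0.05, 5 of the 9 other than Dcn were above 0 and 4 below, and the median was 0.09, against -0.01 over all probes. That median was below 0 without day 1 (-0.08), the label day 14 (-0.11), week 6 (-0.06) or week 15 (-0.09), and was 0.42 without week 0. On LFC arrays alone 1 was above 0 and 8 below, with a median of -0.52, but without week 18 4 were above and 5 below, with a median of -0.04. On HFC arrays alone 7 were above and 2 below, with a median of 0.71, and 8 and 1 without week 18, with a median of 0.92. Over both diets without week 18, 8 were above 0 and 1 below, with a median of 0.38. The late minus early difference of Pi16 was 1.5 (SE 0.68, 95% interval 0.08 to 2.93, limma adjusted p 1.00), or 0.86 without day 1. Its median was 1.00 over 8 early arrays and 2.83 over 12 late ones, with the early LFC array of day 6 as high as the late ones. Dlk1 differed by -1.14 (SE 0.62, adjusted p 1.00), from a median of -1.65 over 9 early arrays to -2.73 over 12 late ones. Without week 18 it was -0.73 over both diets, -1.24 on HFC arrays alone and -0.11 on LFC arrays alone. The values for both diets and for LFC include the LFC level of week 3, 0.41, which was not well above background on that dim array. Over both diets Dlk1 was -1.44 without week 3. At weeks 6, 9, 12 and 15 the LFC level of Dlk1 was -1.95, -3.28, -3.06 and -1.49, against an early LFC median of -1.76. Lum went from -0.61 to 0.38 and Pdgfra from 0.58 to 1.35 without week 18, and Pdgfra was 0.17 without day 6. Beside this, 8 of 9 adipocyte (median -1.30), 7 of 7 endothelial (-0.84), 6 of 6 skeletal muscle (-1.07), 8 of 8 T cell (-0.33), 5 of 5 B cell (-0.88) and 8 of 9 mural markers (-0.44) were lower late, and 7 of 8 macrophage (0.67) and 4 of 4 tested mesothelial markers (1.104) were higher, with 0 called. Without week 18 these medians were -0.90, -0.52, -0.64, -0.63, -1.47, -0.08, 0.60 and 1.02 in the same order. Of the 6 mesothelial markers only 4 were tested, and several of the 6 were near background on many arrays. A gene this dim passes the filter on dim probes through the group that detects it, so the mesothelial direction may partly follow from the filter. With all time points, the lymph node stroma, epithelial, neutrophil and immediate-early medians were -0.72, -0.32, 0.16 and -0.08. The part of these lists in the result was not tested.

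A further comparison asked whether the HFC difference itself was larger late than early. For this interaction limma called 0 of 29215 probes (0%), with 1233 under an unadjusted p of 0.05 (466 without day 1 and 2073 without the label day 14). With another background correction, normexp, 5406 were called (18.5%), and the median of all probes shifted by 1.24. Of the markers 0 of 10 were called against that 0%, and by their main probes 0 had an unadjusted p under 0.05. Without Dcn, the median was 1.22, with 8 markers above 0 and 1 below, against -0.50 over all probes, and it was 0.69 without day 1 and, with 7 above 0 and 2 below, 1.08 without week 18. Thy1 had a mean HFC minus LFC difference of -0.47 over 4 early pairs, which were -3.81, -0.71, 0.37 and 2.25 from day 1 to the label day 14, and of 1.33 over 6 late pairs. Its interaction was 1.80 (SE 1.08, limma adjusted p 0.815), 0.69 without day 1 and 2.71 without the label day 14. The other Thy1 probe had an interaction of 2.12 (SE 0.79, limma unadjusted p 0.0185, adjusted p 0.815). Lum had the widest one, 2.63 (SE 1.62, adjusted p 0.815), which was 1.08 without week 18. In pairs with like adipocyte marker means the median over the 9 markers was 0.01, with 5 above 0 and 4 below. T cell markers (8 genes) and B cell markers (5 genes) had interaction medians of 3.78 and 3.61 (3.78 and 4.08 without week 18), the lymph node stroma list (4 genes) 3.36, the 8 immediate-early genes, all above 0, 1.94, the mesothelial list (4 genes) 1.64, the epithelial list (6) 0.89, the macrophage list (8) 0.86, the mural list (9) 0.77, the endothelial list (7, all above 0) 0.61, the neutrophil list (5) 0.46, skeletal muscle (6) 0.07 and the adipocyte list (9) -0.49. Without week 18 the endothelial and mural medians were -0.33 and -0.14, those of adipocyte and skeletal muscle -1.38 and -1.69, and those of epithelial and neutrophil 0.37 and 1.08. All of these had 0 called, and their part in the result was not tested.

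At week 9 the LFC, HFC, HF5 and HF20 arrays carry the letters WS in their titles, which the labels do not explain, and the HF75 array does not. These 4 arrays were compared with the 8 arrays of the same diets at weeks 6 and 12. For this limma called 0 of 31092 probes (0%), with 4387 under an unadjusted p of 0.05 (1380 without HFC and 1293 without HF5). Of the markers 0 of 10 were called against that 0%, and Dcn was saturated on all 12 arrays. Of the 9 others 1 had an unadjusted p under 0.05, and all 9 were below 0, with a median of -0.45 against 0.02 over all probes. For Thy1 this holds for the main probe only, since its other probe gave 0.64. Without HFC, HF5 or HF20 in turn, 8 of 9 were below 0, and without HFC the median was -0.29. Dlk1 differed by -1.20 (SE 0.52, limma adjusted p 0.350), Pdgfra by -0.85 (SE 0.42, adjusted p 0.355) and Dpp4 by -0.80 (SE 0.39, adjusted p 0.352), where Dlk1 was -0.72 without HF5 and Dpp4 -0.52 without HF20, while Pdgfrb (-0.09, SE 0.22) and Lum (-0.10, SE 0.25) were close to 0. Against weeks 6 and 15 in place of weeks 6 and 12, 2226 of 31346 probes were called (7.10%), 1449 higher and 777 lower, and 1 of the 10 markers was among them, Pdgfra at -1.31. Beside it, the 2 adipocyte markers that could be compared were higher on the WS arrays, with a median of 3.43. The other 7 also read higher, but were saturated on every array of a group, so neither direction nor size is known for them. All 6 epithelial and all 6 mesothelial markers were lower, with medians of -3.53 and -3.54. The mesothelial markers Upk3b, Wt1 and Lrrn4 were well above background on only 14, 15 and 18 of the arrays used. Genes this dim pass the filter on dim probes through the group that detects them, so their direction partly follows from the filter. The 8 immediate-early genes (median -2.60), 5 B cell (-1.54) and 5 neutrophil markers (-1.36) were also all lower, as were 5 of 6 skeletal muscle markers (-0.98). The T cell, endothelial, mural, macrophage and lymph node stroma (3 tested genes) medians were -0.58, -0.39, -0.29, 0.19 and -0.92. The part of these lists in the result was not tested.

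Related genes from fixed lists gave a wider view. The interstitial progenitor list, 10 genes that accompany Dpp4 and Pi16, had 9 of 10 genes higher in HFC than in LFC (median 1.05, or 0.70 with 7 of 10 higher without week 18), and 10 of 10 lower in HF5 (median -0.70, or -0.39 with 10 of 10 without week 3), HF20 (-1.19) and HF75 (-0.67) against HFC. Of these, 1 gene was called, the microfibril gene Fbn1, which fell by 2.04 in HF75 against HFC (SE 0.31, limma adjusted p 0.0375), against the 1.02% called over all probes. It did not pass without any 1 time point, with an adjusted p of 0.195, 0.102, 0.0619, 0.0821 and 0.137 without weeks 3, 6, 9, 12 and 15, nor without the time block (0.0873), while its difference stayed between -2.26 and -1.83 over these. In HF20 against HFC its largest differences were those of Efhd1 (-1.42, SE 0.37) and Mfap5 (-1.40, SE 0.36), both with an adjusted p of 0.401. The interaction of diet and period was above 0 for 10 of 10 of its genes, with a median of 2.28 (1.36 and 9 of 10 without week 18).

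The committed preadipocyte list (10 genes), which includes adipocyte genes such as Pparg and Lpl, had medians of 0.89 (0.36 without week 18), -0.21 (0.20 without week 3), 0.33 and -0.74 in HFC against LFC and HF5, HF20 and HF75 against HFC, leaving out Fabp4, which was saturated on every array of a group, with 0 called. Its members parted ways on the WS arrays, where Pparg was at 2.75 (SE 1.18) and Icam1 at -2.23 (SE 0.85). The list of adipogenesis-regulatory cells (6 genes) had medians of 0.80 (0.44 without week 18), -0.64 (-0.11 without week 3), -0.97 and -0.64 in the same order, with 0 called. In HF75 against HFC its genes Clec11a (-1.42, SE 0.23, limma adjusted p 0.0501) and Gdf10 (-1.39, SE 0.23, adjusted p 0.0506) missed the threshold narrowly. The PDGF ligands (4 genes), which the members Pdgfra and Pdgfrb bind, had medians of 0.50 (0.23 without week 18), -0.27 (0.25 without week 3), -0.23 and -0.29, with 0 called.

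The proteoglycan and fibroblast matrix list (14 genes) had 13 of 13 tested genes higher in HFC than in LFC (median 0.99), but 10 of 14 without week 18 (median 0.30). It had 13 of 14 lower in HF5 (median -0.47), but 6 of 14 without week 3 (median 0.02), and, without Col1a2 and Col3a1, whose spots were saturated on every array of a group, 11 of 12 lower in both HF20 (-0.76) and HF75 (-0.73) against HFC, with 0 called. The genes counted against HFC include Kera, which was well above background on only 9 of the arrays used. Its mean was -7.26 on HF20 and -5.76 on the HFC arrays of the same weeks. A gene this dim passes the filter on dim probes through the group that detects it, so its direction partly follows from the filter. The largest HF75 difference of the list was that of biglycan, Bgn, at -1.48 (SE 0.34, limma adjusted p 0.111). The imprinted growth genes (10), relatives of Dlk1 in their regulation, were lower late than early in 10 of 10, with a median of -1.21 against -0.01 over all probes and 0 called (10 of 10 and -0.67 without week 18). These 10 include Rtl1, which was well above background on only 6 of the arrays used. As for Kera, its direction partly follows from the filter on dim probes and is no separate evidence. H19 gave the largest difference, -3.22 (SE 0.87, adjusted p 1.00; -2.93 without week 18). Their diet medians were 0.70 (0.43 without week 18), -0.24 (-0.10 without week 3), 0.04 and -0.78 in the order above. The 8 further GPI-anchored and Ly6 family genes, set beside Ly6a and Thy1, had diet medians of -0.12 (-0.03 without week 18), -0.08 (0.01 without week 3), -0.54 and -0.16, with 0 called.

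Across arrays the members did not move as 1 block. Of the 45 pairs of members, 10 had a Pearson correlation over 0.7 across the arrays on which both were measured (up to 38), and 2 did when the LFC arrays of week 3, the label day 14 and week 18 were left out, which was decided after the values were seen. Those 2 pairs were Cd34 with Lum (r = 0.815, n = 35) and Dpp4 with Thy1 (r = 0.709, n = 34). Dcn and Lum had r = 0.913 over 38 arrays and 0.305 over 35, so that their likeness rested largely on the arrays left out, and saturation of Dcn limits it too. The 2 receptors had r = 0.859 over 38 arrays and 0.677 over 35. Dlk1 stood alone, with r from -0.11 to 0.31 against the other members over the 35 arrays. These correlations describe arrays that share diets and time points and carry no test.

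Set against the means of the marker lists over the same 35 arrays, a description chosen after the values were seen, the members differed in the list they were most like. Pdgfrb followed the mural list (r = 0.890, n = 35), Cd34 and Lum the rest of the progenitor list (r = 0.812 and 0.791, n = 35), as did Ly6a (r = 0.732, n = 35), and Thy1 the T cell list (r = 0.736, n = 34), with 0.690 for lymph node stroma and 0.653 for the immediate-early list. Pdgfra was most like the mesothelial (r = 0.623), macrophage (0.605) and mural (0.603) lists, ahead of the rest of the progenitor list (0.560). Pi16 was most like the macrophage list (r = 0.565), Dcn the immediate-early list (0.546), Dlk1 the endothelial list (0.543) and Dpp4 the neutrophil list (0.645). Dpp4 ran opposite to the adipocyte list (r = -0.732, n = 35), as Thy1 did (r = -0.637, n = 34). Single genes were compared too, 17830 in all. Over 38 arrays, Pdgfrb was closest to Gjc1 (r = 0.950), 9630050M13Rik (0.947) and the pericyte gene Rgs5 (0.946). Thy1 was closest to Bcl2a1a (r = 0.891), Bcl2a1c (0.867) and Tnfrsf1b (0.864) over 37 arrays, genes of immune cells. Pdgfra was closest to Efemp1 (r = 0.919), Gdf10 (0.913) and Slit3 (0.909), Cd34 to Cnrip1 (0.940), Zfp521 (0.938) and Antxr1 (0.907), and Lum to Galntl1 (0.970), Fndc1 (0.958) and Antxr1 (0.954). Over the 35 arrays (34 for Thy1) the same pairs had, in the order named, 0.871, 0.905 and 0.868 for Pdgfrb, 0.884, 0.884 and 0.862 for Thy1, 0.837, 0.855 and 0.790 for Pdgfra, 0.863, 0.892 and 0.859 for Cd34, and 0.864, 0.856 and 0.892 for Lum.

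**Figure D4:**
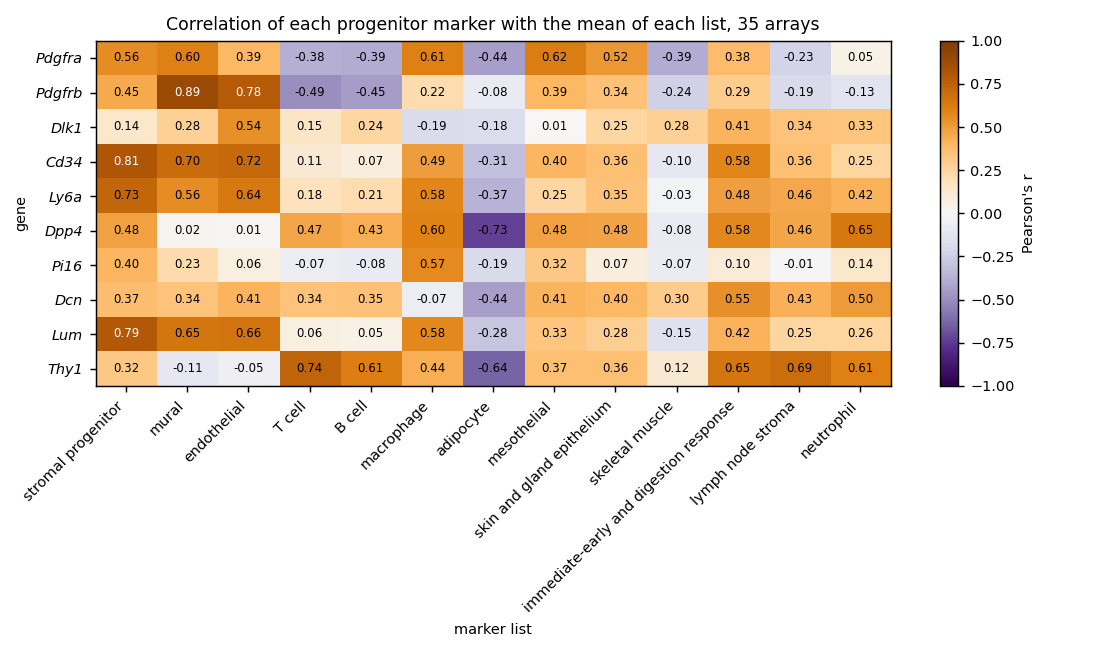
Pearson's r of each marker's main probe (rows) with the mean of each cell type marker list (columns, the marker itself left out) over at most 35 arrays. Pdgfrb is closest to the mural list (0.89), Thy1 to the T cell list (0.74), and Dpp4 has its lowest value with the adipocyte list (-0.73).

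For the remaining members the closest genes were less close or rested on few arrays. Dcn was closest to the collagen genes Col1a2 (r = 0.962) and Col3a1 (0.945) and to Sparc (0.941) over 38 arrays, but over 35 these were 0.691, 0.401 and 0.357. Dlk1 was closest to Fabp7 (r = 0.836), Klhl4 (0.788) and Tmem117 (0.786) over 37 arrays, and over 35 these were 0.792, 0.655 and 0.654. Ly6a was closest to Ifitm3 (r = 0.838), Serpinb6a (0.835) and Gm8144 (0.835) over 38 arrays, and Dpp4 to Ms4a4d (0.765, n = 37), Cd83 (0.758, n = 38) and Bmp7 (0.749, n = 38), the last of which is on the interstitial list. Pi16 was closest to the macrophage gene C1qa (r = 0.718, n = 35), then to a transcript without a gene name and to Cndp2 (both r = 0.643, n = 36).

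The further probes of Pdgfra, Dpp4 and Thy1 show how far a gene's values depend on the probe. All 14 probes are 60 bases long. The probe of Dpp4 that shares a run of 20 bases with the main one followed it closely (r = 0.938, n = 38). The third probe of Dpp4, with a longest shared run of 6 bases, was well above background on 19 arrays and followed it less (r = 0.50, n = 38). The other probe of Thy1, with a shared run of 8 bases, had r = 0.744 (n = 37). The other probe of Pdgfra, with a shared run of 5 bases, was well above background on 25 arrays and had r = 0.407 (n = 37). Without the 3 arrays that stand apart, these values were 0.959 and 0.737 for Dpp4, 0.781 for Thy1 and 0.572 for Pdgfra.

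Promoters are shown for Pdgfra and Pi16, since these had the largest differences below 0 in HF75 against HFC and were lower in 5 of 5 pairs. RefSeq promoter sequences, 250 bases before to 50 bases after the start on the build GRCm38.p6, were held for 5 of the 10 members, and there was no entry for Pdgfrb, Ly6a, Dcn, Lum or Thy1. The motifs searched, on both strands with overlaps allowed, were the TATA box TATAAA, the CCAAT box, the GC box GGGCGG, the AP-1 motif TGANTCA and the E-box CANNTG. They occurred in 13.6%, 37.4%, 35.7%, 7.81% and 72.3% of 32851 promoters of the same length. Pdgfra (chr5:75152001-75152300, + strand) held 2 E-box matches and Pi16 (chr17:29318632-29318931, + strand) held 1 CCAAT and 1 E-box match. Capitals mark the matches in the sequences, which run 5′ to 3′. Dpp4 (chr2:62412182-62412481, - strand) held 1 TATAAA and 1 E-box match, and Dlk1 and Cd34 held 0 matches. A match describes letters and not a bound site, and motifs found in most promoters set no member apart.
Pdgfra: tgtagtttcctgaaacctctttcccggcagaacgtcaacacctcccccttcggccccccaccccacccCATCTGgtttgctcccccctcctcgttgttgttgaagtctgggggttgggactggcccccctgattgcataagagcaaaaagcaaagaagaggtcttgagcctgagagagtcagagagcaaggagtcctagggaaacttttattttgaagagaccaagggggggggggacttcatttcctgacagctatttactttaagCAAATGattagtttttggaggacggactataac
Pi16: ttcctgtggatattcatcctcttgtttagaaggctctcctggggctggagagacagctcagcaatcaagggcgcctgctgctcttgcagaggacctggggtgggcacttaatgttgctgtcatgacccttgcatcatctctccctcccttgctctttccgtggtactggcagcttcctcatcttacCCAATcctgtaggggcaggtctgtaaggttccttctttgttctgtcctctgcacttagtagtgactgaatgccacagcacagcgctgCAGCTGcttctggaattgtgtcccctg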

How the data were processed

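RNA of stromal vascular cells from mouse subcutaneous fat was measured on 1-colour Agilent arrays. The deposited intensity of each spot came, per the file headers, from Feature Extraction 10.5.1.1 (the processing notes name 9.1). That software removed background and spatial trends array by array, with no scaling across arrays. The 40 fold change columns hold the authors' log2 fold comparisons and were not used; their table supplied the gene symbols. Of 40 arrays, 38 were grouped by diet and time from their labels, and 2 with conflicting labels were left out. The array annotation is on mm9 and the promoters on GRCm38.p6.

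Outlier spots were dropped, duplicate spots averaged, and log2 intensities shifted by the 75th percentile of each array. A value that the scanner did not call well above background was raised to the lowest level so called on its array if it lay below it. limma 3.58.1 in R 4.3.3 tested each probe that stood well above background on 50% or more of 1 group's arrays, with the time point as a block (diet for the WS arrays; for late against early a random block, its correlation estimated on 1 in 10 probes) and a Benjamini-Hochberg adjusted p under 0.05 over all probes tested. The code was tested on simulated data. Other steps used Python 3.11.15, NumPy 2.4.6, pandas 2.3.3, SciPy 1.17.1 and matplotlib 3.10.9. The number of arrays limits precision.

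The members, 7 fixed lists and 13 cell type lists were chosen with earlier results of these data known. The genes to be named were all members, the 3 genes most like each among those well above background on at least 30 arrays, and from each fixed list up to 4 called genes or, with none called, up to 2 with the largest difference; a selection of these is printed. Alternatives were normexp with an offset of 50, quantile normalization, other filters on dim probes, dim values as measured, no replicate block, a plain t-test, omitted time points, pairs on one slide, single diets, other WS neighbours and other probes. Pairs scanned on one day, pairs with like adipocyte markers and the omission of 3 time labels together were chosen after seeing the data.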

Additional observations from a re-analysis of the deposited data

Results flagged for a closer look

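The HF5 array of week 3 stood far from the other 5 HF5 arrays for 3 markers. Its Pdgfrb level was -1.42, with the nearest of the others at 2.36, a gap of 0.807 of the whole range. Its Cd34 level was 2.72, with the nearest at 4.70 (0.690 of the range), and its Lum level was 1.68, with the nearest at 4.00 (0.738 of the range). All 3 come from the same array, so they are not separate observations. Chance alone marks about 1 in 20 groups in this way, and 30 groups of arrays were tested. The same array had low mural and endothelial marker means of -2.18 and -2.28 and the highest T cell marker mean, 2.38, and the part of these cells in the levels was not tested.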

How the results depend on the processing

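The 67 differences of the markers were fitted 1143 times under the alternatives. Of these, 1063 kept their direction and their side of the threshold, 79 changed direction, and 1 passed the threshold, Pdgfra on the WS arrays (-1.31) against weeks 6 and 15, where 7.10% of all probes passed it. Leaving out 1 time point or diet gave 26 of the 79 (of 516 fits), and the other alternatives 53 (of 627). The cause of the changes below was not tested, except that alternatives with fewer arrays or probes differ by construction. Dcn was saturated on many arrays of each comparison, so the direction of the Dcn values below is not known.

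For HF75 against HFC, 295 probes became 344 with quantile normalization, 239 with normexp, 293 with dim values as measured, 200 in pairs with like adipocyte markers, 153 without a filter on dim probes, 149 with probes well above background on all arrays, 0 without the time point block and 0 in pairs scanned on one day (2 pairs, chosen after seeing the data). At an unadjusted p under 0.05 limma had 3663 probes without the block and 1685 in those pairs. Without 1 time point it was 0 (week 3) to 200 (week 9), with 7, 95 and 35 without weeks 6, 12 and 15. Late against early went from 0 to 2 with probes well above background on all arrays and to 1 without the random block. The interaction of diet and period went from 0 to 5406 with normexp, which shifted the median of all probes by 1.24, to 0.74. The WS count went from 0 to 2226 with neighbours at weeks 6 and 15. Normexp also shifted the median of all probes by -0.31 in HF5, -0.48 in HF20, -0.23 in HF75 and -0.22 in late against early, and quantile normalization shifted the last by 0.26. The counts of HFC against LFC and of HF5 and HF20 against HFC were 0 under each alternative run.

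For HFC against LFC, pairs on one slide, with the dim LFC array of week 3 among them, gave Dlk1 -0.65, Cd34 -0.073 and Dpp4 -0.013. Dlk1 was also -0.14 with quantile normalization, -0.016 in pairs scanned on one day and -0.74 in pairs with like adipocyte markers. Without week 3 and the label day 14 Ly6a was -0.26. Without week 18 as well, Ly6a was -0.40, Dpp4 -0.067 and Dcn -0.24. Another Dpp4 probe gave -0.46, but it was well above background on 4 of 11 LFC and 7 of 11 HFC arrays, so neither size nor direction is known. Without 1 time point, Dlk1 ran from -0.32 to 0.41 and Ly6a from -0.021 to 0.61.

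For HF5 against HFC, pairs on one slide (3) gave Pdgfra 0.44, Pdgfrb 0.64, Ly6a 0.20, Dpp4 0.16, Pi16 0.15 and Dcn 0.14. Normexp gave Pdgfrb 0.01 and Dcn 0.11, another Pdgfra probe gave 0.15, and Dpp4 was 0.10 without week 9. Without 1 time point, Pdgfrb ran from -0.68 to 0.36, Dpp4 from -0.15 to 0.10 and Dcn from -0.22 to 0.13. All HF20 differences of the markers other than Dcn, which was saturated, kept their direction. For HF75 against HFC, Pdgfrb was 0.013 in pairs scanned on one day and 0.037 with like adipocyte markers, and Dlk1 was -0.16 with normexp. Without 1 time point, Pdgfrb ran from -0.76 to 0.037 and Dpp4 from -0.51 to 0.22.

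For late against early, LFC arrays alone gave Pdgfra -0.017, Ly6a -0.52, Dpp4 -0.32 and Thy1 -0.18, and HFC arrays alone gave Cd34 0.53, Dcn 0.31 and Lum 0.71. Without week 18, LFC arrays alone gave Pdgfra 1.25 (direction kept), Pdgfrb 0.124, Cd34 0.109, Ly6a -0.36, Dpp4 -0.21, Dcn 0.113 and Thy1 -0.037, and HFC arrays alone gave Pdgfrb 0.122, Cd34 0.56, Dcn 0.102 and Lum 0.92. Without week 3, the label day 14 and week 18, Pdgfrb was 0.0938, Cd34 0.041 and Lum 0.15. Without 1 time point, Pdgfrb ran from -0.77 to 0.12, Cd34 from -0.29 to 0.34, Ly6a from -0.11 to 0.42, Dcn from -1.04 to 0.11 and Lum from -0.96 to 0.38.

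For the interaction, pairs with like adipocyte markers gave Pdgfra -0.014, Pdgfrb -0.13, Cd34 -0.36 and Dcn -0.36. Another Pdgfra probe gave -0.40, but it was well above background on 4 of 10 LFC arrays, so neither size nor direction is known. Pdgfrb was -0.13 without week 3, the label day 14 and week 18, and Dlk1 was 0.77 with normexp and 0.25 without week 3 and the label day 14. Without 1 time point, Pdgfrb ran from -0.0027 to 1.22, Dlk1 from -1.06 to 0.25 and Dcn from -0.011 to 2.66. For the WS arrays another Thy1 probe gave 0.64, and without 1 diet Pdgfrb ran from -0.18 to 0.017 and Lum from -0.25 to 0.046. Dim arrays limit the low markers most, since a value near background is at best a bound.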

Other observations

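The 2 arrays of week 18 whose labels conflict on the diet belong in no comparison. On the first, Pdgfra was at -1.78, Pdgfrb at 0.23, Dlk1 at -2.64, Cd34 at 2.78 and Ly6a at -0.03. Dpp4 was at -0.64 there, Pi16 at 0.22, Dcn at 4.17 with a saturated spot, Lum at 1.28 and Thy1 at 1.39. On the second, Pdgfra was at 1.12, Pdgfrb at 3.30, Dlk1 at -2.55, Cd34 at 5.35 and Ly6a at 2.11. Dpp4 was at 0.42 there, Pi16 at 2.56, Dcn at 7.09 with a saturated spot, Lum at 4.75 and Thy1 at 3.42.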
